A study of Mus musculus with 6 samples.

Results

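The 10 core genes of the circadian clock examined here were Arntl, Clock, Npas2, Per2, Per3, Cry1, Cry2, Nr1d1, Nr1d2 and Dbp, out of 21851 protein-coding genes in the GENCODE annotation of mm10. They were listed by name and not by a rule on measured values, though earlier results of these data were known when they were chosen. Their open chromatin was described from peaks whose summit lay between 50 kb upstream and 50 kb downstream of the gene (50000 bp to each side), and a promoter peak was one within 1000 bp of the start of a protein-coding transcript of the basic GENCODE set. Merged over all 6 libraries, 241 of 194496 open regions fell into these windows.

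ATAC-seq, which marks open chromatin by where a transposase can cut, was run on adipocytes differentiated in culture for 7 days, with 2 libraries each of beige, white and brown cells. The reporting summary of the study calls the ATAC-seq libraries of a group biological replicates, though it does not describe the brown ones. All came from wild type male C57BL/6J mice of 3 to 4 weeks. For beige and white, cells of the stromal vascular fraction, the non-fat cells of the tissue that include adipocyte precursors, were taken from inguinal (subcutaneous) fat; for brown they were taken from brown adipose tissue. The beige and brown induction medium held insulin, 5 µM dexamethasone, 0.5 mM isobutyl methylxanthine, 1 nM T3 and 1 µM rosiglitazone for 48 h, and afterwards insulin, T3 and rosiglitazone, renewed every 48 h. White cells received insulin, 1 µM dexamethasone and 0.5 mM isobutyl methylxanthine, then insulin alone. Beige and white thus differ in medium, beige and brown in depot, and white and brown in both, which cannot be told apart. The file list of the reporting summary holds the beige and white libraries but not the brown ones. Whether brown was prepared and sequenced together with the others is not given. Any such difference cannot be told apart from depot. The hour of harvest, and the time since the last change of medium, are not given in the sources used here, and the cells are a mixed culture rather than sorted adipocytes.

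In the mammalian clock, BMAL1 (encoded by Arntl) pairs with CLOCK or its relative NPAS2, binds E-boxes and switches on the Per, Cry, Nr1d1, Nr1d2 and Dbp genes. PER and CRY proteins then return to block BMAL1 and CLOCK, and the nuclear receptors REV-ERBα (Nr1d1) and REV-ERBβ (Nr1d2) repress Arntl through ROR elements, while DBP acts on output genes through D-boxes. In fat this oscillator is known to time lipid storage, lipolysis and thermogenesis, and REV-ERBα is known as a repressor of Ucp1 in brown fat.

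On mm10 the genes lie as follows. Of the activators, Arntl lies at chr7:113207465-113314126 (plus strand), Clock at chr5:76209868-76304792 (minus strand) and Npas2 at chr1:39193731-39363236 (plus strand). Of the repressors, Per2 lies at chr1:91415982-91459324 (minus strand), Per3 at chr4:151003652-151044665 (minus strand), Cry1 at chr10:85131700-85185064 (minus strand) and Cry2 at chr2:92403646-92434043 (minus strand). Nr1d1 lies at chr11:98767932-98775333 (minus strand), Nr1d2 at chr14:18204054-18239127 (minus strand) and Dbp at chr7:45705088-45710203 (plus strand).

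The peak lists held 109143 to 127490 peaks per library, of which 167 to 186, or 0.139% to 0.153% of each list, lay in the clock gene windows. The reporting summary of the study gives more mapped reads for both white libraries than for both beige ones, and does not list the brown ones. The part of this difference in the values below was not tested. The lists themselves hold no reads, so values could not be scaled for depth. Each peak was therefore placed by the percentile of its fold enrichment within its own list (100 is the strongest peak), and only these percentiles are set side by side. The replicates were compared over the 13547 coding genes with a promoter peak in every library. The median absolute difference between them was 2.60 points in beige, 4.55 in white and 2.49 in brown. White replicate 2 had the lowest median promoter percentile, 85.8 against 87.9 to 90.8 in the others. Promoters of all 8 adipocyte markers, Adipoq and Pparg among them, were open in every library. By the rank rule given below, Adipoq, Fabp4, Cidec and Cebpa ranked higher in brown than in beige (6.69% of coding genes), and none the opposite. Adipoq had 2.54 and 24.8 in beige and 62.1 and 58.2 in brown. Of 6 brown adipocyte markers, Cidea, Lhx8, Ppargc1a and Ebf2 were open in every library, white included. The promoter of Ucp1, which encodes the uncoupling protein of brown fat, was open in the brown libraries only, and weakly, at percentiles of 9.12 and 4.23. Zic1, a marker of brown precursors, was open in both brown libraries and weakly in beige replicate 2, at a percentile of 14.9. Of 6 macrophage markers, 2 or 3 had an open promoter in each library, and Csf1r, Ptprc and Mrc1 had none. Of 5 endothelial markers 3 were open, with Cdh5 and Emcn at none, and of 6 progenitor markers 4 or 5 were open, with Ly6a at none. Their part in the values below was not tested. With 2 libraries against 2 no two-sided exact permutation test can give a p below 0.333, so the conditions are set side by side without a p.

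The sequences below are those on which the results turn. They carry the letters of E-boxes (CACGTG), E′-boxes (CACGTT), the D-box (TTANGTAA) or the ROR element shared by RORs and REV-ERBs (TAGGTCA) within 100 bp of the strongest summit of an open region. Regions are named by gene and by the distance in bp of that summit from the gene's 5′ end, positive values lying downstream. All are from mm10 (GRCm38), written 5′ to 3′ on the strand of the clock gene, and capitals mark a match on either strand.

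Promoter regions were shown for Per2 (chr1:91459299-91459499, minus strand), Cry1 (chr10:85185035-85185180, minus strand), Nr1d1 (chr11:98775304-98775476, minus strand) and Dbp (chr7:45704837-45705037, plus strand), because they are the promoters of clock genes that hold a match, and they end at most 30 bases past the start of the gene.
Per2 −75: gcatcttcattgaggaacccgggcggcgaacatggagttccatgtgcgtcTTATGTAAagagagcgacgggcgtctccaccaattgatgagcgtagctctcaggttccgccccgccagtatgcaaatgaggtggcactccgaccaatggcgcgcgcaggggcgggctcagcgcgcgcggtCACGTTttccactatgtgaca
Cry1 −16: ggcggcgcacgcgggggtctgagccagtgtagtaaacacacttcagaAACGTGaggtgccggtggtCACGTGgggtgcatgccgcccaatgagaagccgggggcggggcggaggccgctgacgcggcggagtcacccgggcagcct
Nr1d1 −43: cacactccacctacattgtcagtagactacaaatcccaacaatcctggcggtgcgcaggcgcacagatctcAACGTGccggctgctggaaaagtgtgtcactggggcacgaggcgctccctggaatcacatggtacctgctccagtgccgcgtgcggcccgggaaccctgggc
Dbp −151: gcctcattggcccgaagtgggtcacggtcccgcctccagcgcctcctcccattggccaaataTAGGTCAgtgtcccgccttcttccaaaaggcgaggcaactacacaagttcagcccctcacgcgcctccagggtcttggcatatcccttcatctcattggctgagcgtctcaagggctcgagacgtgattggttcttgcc

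The Per2 promoter held a D-box match whose first base lay at −125 and an E′-box match at 5 bp. The Cry1 promoter held an E′-box match at −69 and an E-box match at −50, the Nr1d1 promoter an E′-box match at −72, and the Dbp promoter a ROR element at −189. Within 100 bp of the strongest summit, none of these letters stood in the strongest promoter regions of Arntl, Clock, Npas2, Per3, Cry2 and Nr1d2, which says only that they are not in these windows.

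Further E-box regions were shown because they ranked lower in the white libraries than in the beige ones, and that of Dbp because it holds the most matches. They lie in Nr1d1 itself (chr11:98773721-98773921, minus strand), in introns of the overlapping gene Thra (chr11:98754742-98754942, minus strand; chr11:98747494-98747694, minus strand), in Npas2 (chr1:39283454-39283654, plus strand), in Cry2 (chr2:92423802-92424002, minus strand) and in Dbp (chr7:45707675-45707875, plus strand), and 1 lies upstream of Nr1d1 (chr11:98788949-98789149, minus strand).
Npas2 +89823: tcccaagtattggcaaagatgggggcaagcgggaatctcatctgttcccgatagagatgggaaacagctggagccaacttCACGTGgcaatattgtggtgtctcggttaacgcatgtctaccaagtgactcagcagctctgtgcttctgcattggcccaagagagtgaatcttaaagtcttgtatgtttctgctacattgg
Nr1d1 −13716: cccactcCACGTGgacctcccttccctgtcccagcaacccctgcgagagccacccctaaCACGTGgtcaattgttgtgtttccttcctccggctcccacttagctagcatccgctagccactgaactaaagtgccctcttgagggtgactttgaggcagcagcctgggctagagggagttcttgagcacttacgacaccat
Nr1d1 +1512: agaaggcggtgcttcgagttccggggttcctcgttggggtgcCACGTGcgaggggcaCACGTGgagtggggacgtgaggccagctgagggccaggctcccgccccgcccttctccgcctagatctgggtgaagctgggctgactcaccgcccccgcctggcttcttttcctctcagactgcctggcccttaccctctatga
Nr1d1 +20491: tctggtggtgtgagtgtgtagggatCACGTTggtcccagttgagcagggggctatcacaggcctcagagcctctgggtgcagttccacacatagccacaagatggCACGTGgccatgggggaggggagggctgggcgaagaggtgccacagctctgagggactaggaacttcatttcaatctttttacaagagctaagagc
Nr1d1 +27739: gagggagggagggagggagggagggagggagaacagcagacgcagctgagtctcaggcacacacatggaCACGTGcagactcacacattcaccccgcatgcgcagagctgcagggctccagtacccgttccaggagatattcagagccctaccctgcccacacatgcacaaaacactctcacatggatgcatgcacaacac
Cry2 +10141: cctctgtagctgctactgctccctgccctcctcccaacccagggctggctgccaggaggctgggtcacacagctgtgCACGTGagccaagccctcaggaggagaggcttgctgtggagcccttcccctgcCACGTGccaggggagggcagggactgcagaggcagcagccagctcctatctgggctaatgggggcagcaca
Dbp +2687: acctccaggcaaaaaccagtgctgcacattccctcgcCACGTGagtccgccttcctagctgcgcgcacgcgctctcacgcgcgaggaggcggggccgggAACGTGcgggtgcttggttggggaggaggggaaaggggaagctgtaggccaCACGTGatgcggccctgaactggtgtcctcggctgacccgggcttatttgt

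Intronic ROR elements were shown for Cry1 (chr10:85161809-85162009, minus strand), Arntl (chr7:113250806-113251006, plus strand) and Npas2 (chr1:39317988-39318188, plus strand), since the first holds 2 matches and the others lie in regions that ranked higher in beige than in white.
Cry1 +23155: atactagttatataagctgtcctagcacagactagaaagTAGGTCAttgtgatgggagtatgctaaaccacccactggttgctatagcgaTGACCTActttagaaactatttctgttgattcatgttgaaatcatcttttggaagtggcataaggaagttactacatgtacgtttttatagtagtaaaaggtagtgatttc
Arntl +43441: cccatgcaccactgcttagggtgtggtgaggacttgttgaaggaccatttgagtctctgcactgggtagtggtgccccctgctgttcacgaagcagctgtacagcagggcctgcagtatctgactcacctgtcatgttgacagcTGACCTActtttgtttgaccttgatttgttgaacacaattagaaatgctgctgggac
Npas2 +124357: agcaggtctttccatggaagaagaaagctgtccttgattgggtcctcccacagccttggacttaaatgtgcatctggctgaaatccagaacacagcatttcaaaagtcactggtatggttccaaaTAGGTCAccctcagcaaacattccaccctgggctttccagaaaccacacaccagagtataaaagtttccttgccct

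Promoters of all 10 clock genes were open in all 6 libraries, as were those of 62.0% of coding genes. Clock, Cry1, Per3 and Arntl had the highest percentiles and Npas2 the lowest, on the means over libraries. Differences between conditions were counted where both libraries of one condition ranked above both of the other and their means differed by at least 10 points. By that rule 5 promoters ranked higher in brown than in beige (Arntl, Per2, Cry2, Nr1d1 and Dbp; 6.69% of coding genes), 4 ranked higher in brown than in white (Per2, Per3, Cry2 and Nr1d1; 12.0%) and 1, Per3, higher in beige than in white (10.4%). In the opposite directions there was 0 of 10 each, with 4.43% of coding genes for beige over brown, 4.92% for white over brown and 5.68% for white over beige.

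Such differences were commoner among promoters of lower rank, and 5 of these 10, those of Per2, Nr1d1 and Dbp, were at genes whose mean percentile was under 80. Among all coding genes under 80, 16.3% ranked higher in brown than in beige and 23.0% higher in brown than in white, against 2.01% and 6.61% at or over 80. Ranked by −log10 q in place of fold, none of the 10 promoters ranked higher in brown than in beige (2.07% of coding genes), while Per2, Per3 and Nr1d1 still ranked higher in brown than in white and Per3 in beige than in white. Without white replicate 1 the counts were 5 for beige over white (Per2, Per3, Cry2, Nr1d1 and Dbp) and 7 for brown over white (these with Arntl and Nr1d2). Without white replicate 2, 2, Per3 and Nr1d1, ranked higher in brown than in white and 2, Npas2 and Dbp, higher in white than in beige. Without beige replicate 1, Nr1d1 joined Per3 in beige over white. Leaving out 1 library drops the need for the 2 libraries of its condition to agree, for every gene. The share of coding genes is not given for these counts. With all libraries, beige ranked above white in 17.0% of all regions open in every library and brown above white in 13.9%. Without white replicate 1 these shares were 25.5% and 24.0%, and without white replicate 2 they were 23.5% and 18.6%.

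**Figure D1:**
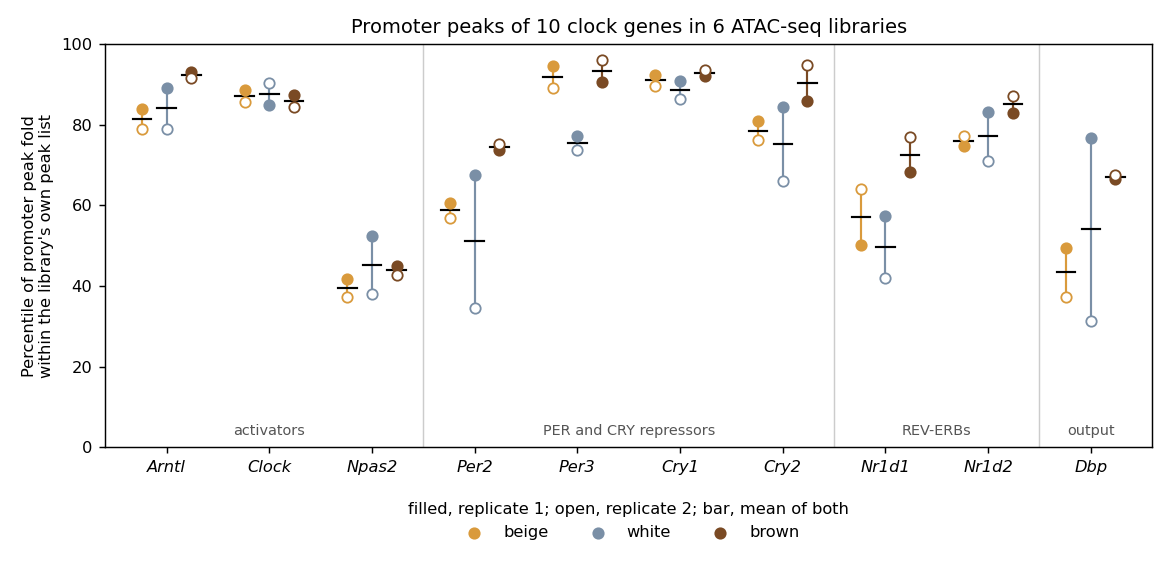
Percentile of the strongest promoter peak of each clock gene (y axis, 0 to 100, within the library's own peak list) in beige, white and brown libraries; filled points are replicate 1, open points replicate 2 and black bars the mean of both. Per3 sits lower in both white libraries (77.2 and 73.7) than in all others, while the 2 white libraries lie far apart at Dbp (76.7 and 31.4) and Per2 (67.6 and 34.5).

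Among the activators, Arntl, whose product BMAL1 is the partner that CLOCK and NPAS2 share, had promoter percentiles of 83.9 and 79.0 in beige, 89.2 and 79.0 in white and 93.0 and 91.5 in brown. Both brown libraries lay above all beige and white libraries. Clock, the histone acetyltransferase partner, had 88.7 and 85.7 in beige, 84.9 and 90.4 in white and 87.4 and 84.5 in brown, and the 3 conditions overlapped. Npas2, which can take the place of CLOCK, had the lowest promoter percentiles of the 10 on the means of each condition, at 41.7 and 37.3, 52.3 and 38.0, and 45.0 and 42.8 in the same order. Its conditions overlapped between white and the others, and a second region, Npas2 −858 upstream of the 5′ end, ranked higher than the promoter peak in every library, at 56.3 to 70.2, and held a ROR element. That region is over 1000 bp from the start of the Npas2 transcript in the basic set and was not counted as a promoter, and with it Npas2 would be the lowest in brown but not in beige or white, as its means were 63.3 in beige, 67.8 in white and 61.4 in brown.

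Of the repressors Cry1 had the narrowest range and Per2 the widest. Cry1 encodes the strongest repressor of the loop and had 92.3 and 89.6 in beige, 90.7 and 86.4 in white and 92.0 and 93.5 in brown, with a total range of 7.08 points. Cry2, its paralog, had 80.9 and 76.2 in beige, 84.5 and 66.0 in white and 85.9 and 94.8 in brown, where both brown libraries lay above the rest. Per3, a PER protein that modulates the period, had 94.6 and 89.1 in beige, 77.2 and 73.7 in white and 90.5 and 96.0 in brown. White lay 16.4 points below beige and 17.8 below brown on the means (91.9 ± 3.89, 75.5 ± 2.51 and 93.2 ± 3.91 in beige, white and brown, SD, n = 2), with no overlap. This difference held by fold, by −log10 q and with each library left out, as did the higher rank of Nr1d1 in brown than in white. Per2, the PER protein whose gene responds to glucocorticoid and cAMP signals, had 60.7 and 56.9 in beige, 67.6 and 34.5 in white and 73.7 and 75.2 in brown. Brown was above both, but the white libraries differed by more than white differed from any other condition.

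The REV-ERB genes and Dbp are direct outputs of BMAL1 and CLOCK. The promoter of Nr1d1 had 50.1 and 64.1 in beige, 57.4 and 42.1 in white and 68.3 and 76.9 in brown. Beige and white overlapped, and brown lay above both. The promoter of Nr1d2 had 74.6 and 77.1 in beige, 83.1 and 71.1 in white and 83.0 and 87.2 in brown, with white overlapping both others. Dbp, a PAR bZIP factor, had 49.5 and 37.3 in beige, 76.7 and 31.4 in white and 66.5 and 67.4 in brown, a total range of 45.3 points, the widest of the 10. Brown lay above beige by 23.5 points (66.9 ± 0.654 against 43.4 ± 8.63, SD, n = 2), and white spanned both.

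For the 3 genes with the widest range, the coding genes with the most similar promoter percentiles over the 6 libraries were found among 13546 genes by the mean absolute difference. They were Fosl2 (3.20 points) and Camk2n1 (4.28) for Dbp, Mt2 (2.65) and Adig (2.68) for Per2, and Pcdh19 (3.97) and Arrb1 (4.18) for Nr1d1.

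A further 14 genes of the clock were listed for comparison: Per1, Rora, Rorb, Bhlhe40, Bhlhe41, Tef, Hlf, Nfil3, Ciart, Csnk1d, Csnk1e, Fbxl21, Btrc and Timeless. All 14 promoters were open in all 6 libraries. Brown ranked above beige for 3 of the 14, against 6.69% of coding genes. They were Per1, the third PER gene, Bhlhe41, a repressor that competes at E-boxes, and Nfil3, which opposes DBP at D-boxes. Brown ranked above white for 3 (Hlf, Csnk1d and Csnk1e), against 12.0% of coding genes. Beige ranked above white for 2, against 10.4%, namely Csnk1d and Csnk1e, kinases that mark PER proteins for degradation. Csnk1e had 47.9 and 50.1 in beige, 19.2 and 23.9 in white and 59.5 and 49.1 in brown, with no overlap of white. Bhlhe40, the paralog of Bhlhe41, went the other way, with 7.97 and 47.5 in beige, 62.4 and 44.7 in white and 1.67 and 6.41 in brown. Beige and white thus both ranked above brown (4.43% and 4.92% of coding genes). The strongest summit near the Bhlhe40 promoter was not at the same place in every library.

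Clock gene windows held more open regions than the genome as a whole, which includes long stretches without genes. Windows around other genes were not counted, so whether this density is particular to clock genes was not tested. Their windows, 1587 kb in all, held 15.2 open regions per 100 kb against 7.14 over the genome, from 8.21 around Clock to 28.9 around Nr1d1. Of the 241 regions, 151 lay in introns, 68 between genes, 14 in untranslated regions and 8 in coding exons. In 50 (20.7%, against 11.6% of all regions) the region was a promoter of some coding gene, and 14 were promoter regions of a clock gene. Peaks in all 6 libraries were found in 100 regions, or 41.5% (95% Clopper-Pearson interval 35.2 to 48.0%, here and below for counting error only), against 30.2% of all regions, and 68 (28.2%, against 37.2%) were found in 1 library.

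Beige libraries had more clock gene regions of their own than white libraries. In both beige and no white library 19 regions were open, or 7.88% (4.81 to 12.0%), against 4.49% of all regions. In both white and no beige library there were 4, or 1.66% (0.454 to 4.19%), against 1.98%. The beige regions were spread over 8 windows, with 4 at Nr1d1, 3 each at Nr1d2 and Dbp and 1 or 2 each at Arntl, Per2, Per3, Cry1 and Cry2. Leaving out 1 library relaxes the rule, and both shares then rise: without beige replicate 1 the beige share was 15.4% against 13.5% of all regions, without beige replicate 2 it was 11.0% against 11.0%, without white replicate 1 it was 10.6% against 8.28%, and without white replicate 2 it was 14.0% against 9.12%, while the white share was 9.65% against 12.6%. The distance to the share of all regions was smaller without either beige library or white replicate 1 than with all libraries, and larger without white replicate 2.

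Comparisons with brown gave shares near those of all regions. Open in both beige and no brown library were 14 (5.81% against 4.80%), in both brown and no beige library 2 (0.830% against 1.56%), in both brown and no white library 8 (3.32% against 2.94%) and in both white and no brown library 7 (2.90% against 3.48%). Without beige replicate 1 the beige-not-brown share was 14.5% against 14.8% of all regions, and without brown replicate 1 the brown-not-beige share was 7.20% against 10.1%. Of all 241 regions, 7 were open in both beige libraries and nowhere else (2.90%, against 1.94% of all regions). In both white libraries alone there were 2, Clock +125747 and Nr1d1 +6936 (0.830% against 1.22%). In both brown libraries alone there was 1, Dbp −26381 in a coding exon of Sec1 (0.415% against 0.878%). Another 4 (1.66% against 1.25%) were open in all beige and brown libraries but no white library. They were Arntl +102870, Per2 +13901, Cry2 −9506 and Nr1d2 −48519. A further 3 (1.24% against 1.16%), Arntl +43817, Cry1 +30670 and Cry2 −4114, were open in all 4 libraries from inguinal fat and in neither brown library.

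Rank differences were counted over the 100 regions open in all 6 libraries. Beige and brown were both set against the same 2 white libraries, so these comparisons are not independent of each other. Beige ranked above white in 26 (26.0%, 17.7 to 35.7%; 17.0% of all such regions) and brown above white in 23 (23.0%, 15.2 to 32.5%; 13.9%). White ranked above beige in 12 (12.9% of all) and above brown in 8 (15.7%). Between beige and brown the counts were 16 for brown (11.5%) and 13 for beige (18.3%), and their order turned under other settings, with 6 for brown and 14 for beige when ranked by −log10 q. Without white replicate 2 the beige share over white was 25.7% against 23.5% of all regions and the brown share over white 20.0% against 18.6%, so the distance to all regions was small without that library. Without white replicate 1 they were 38.3% against 25.5% and 33.6% against 24.0%.

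**Figure D2:**
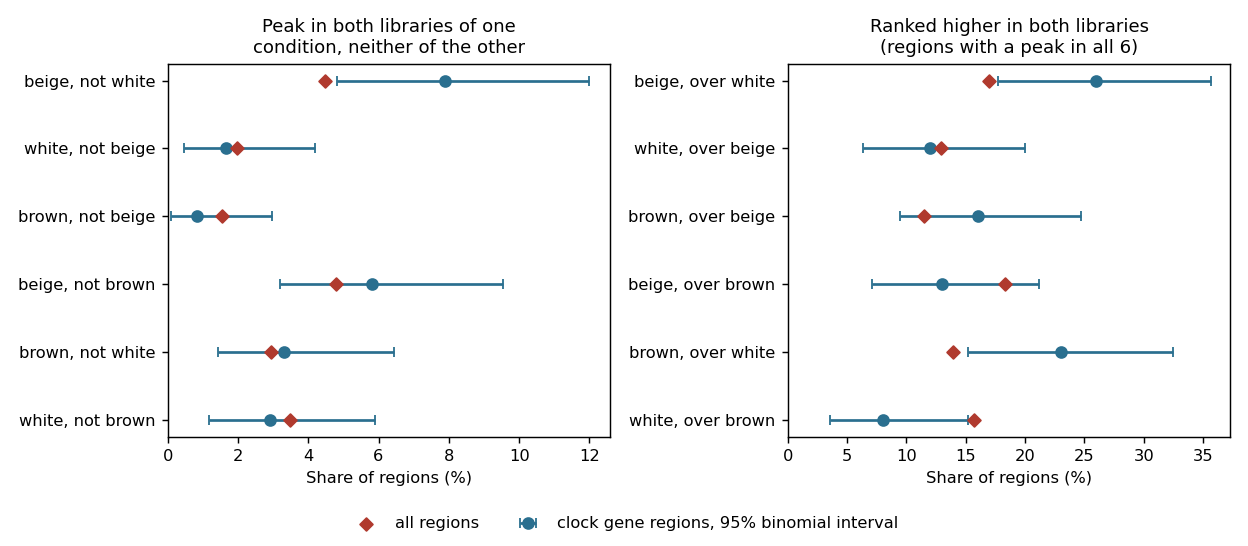
Share of clock gene regions (blue circles, with 95% binomial intervals) and of all regions (red diamonds) that were open in both libraries of one condition and neither of the other (left, of 241 regions) or ranked higher in one condition than another (right, of 100 regions open in all 6 libraries). The beige-not-white share of 7.88% stands beside 4.49% of all regions, and the intervals of the remaining presence shares hold the share of all regions.

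The Nr1d1 window led the rank differences, with 8 of its 18 shared regions ranking higher in beige than in white and 8 higher in brown than in white. The window also holds Thra, which encodes a thyroid hormone receptor and overlaps Nr1d1 on the opposite strand, together with Med24, Msl1 and Casc3, and peaks cannot be assigned to one of these genes. Within Nr1d1, the intronic region +1512 with 2 E-boxes had 50.2 and 47.2 in beige, 40.1 and 4.60 in white and 53.5 and 55.1 in brown. White lay below all other libraries, and its own replicates differed by more than beige and brown did. In introns of Thra, region +27739 with 1 E-box had 46.0 and 43.4 in beige, 18.7 and 1.00 in white and 44.1 and 44.7 in brown. Region +20491, with an E-box and an E′-box, had 76.8 and 83.5 in beige, 46.8 and 67.1 in white and 60.5 and 59.7 in brown, so that it was highest in beige.

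Upstream of Nr1d1, region −13716 with 2 E-boxes had 79.3 and 75.1 in beige, 73.7 and 59.4 in white and 79.3 and 85.0 in brown. At the promoter of Med24, a subunit of the Mediator complex that couples nuclear receptors to transcription, region +45898 had 96.1 and 99.3, 87.3 and 73.5, and 96.0 and 93.5. White was the lowest condition at both. In a coding exon of Med24, region +57238 was highest in beige and lowest in brown, with 88.1 and 83.4 in beige, 66.2 and 62.7 in white and 58.0 and 37.9 in brown, and no 2 conditions overlapped. The 4 beige-only regions, +12291, +12523, +20880 and +43966, were weak, at 3.82 to 34.0, and the first 3 lay within Thra. Those 3 lay beside regions +12035 and +20491, which were open in all libraries and ranked higher in beige than in white. Brown and white both ranked above beige at a promoter of Msl1 (region −21305), at −10595 and in an intron of Med24 (+53689), which had 56.6 and 62.2 in beige, 76.5 and 85.9 in white and 70.9 and 75.3 in brown.

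**Figure D3:**
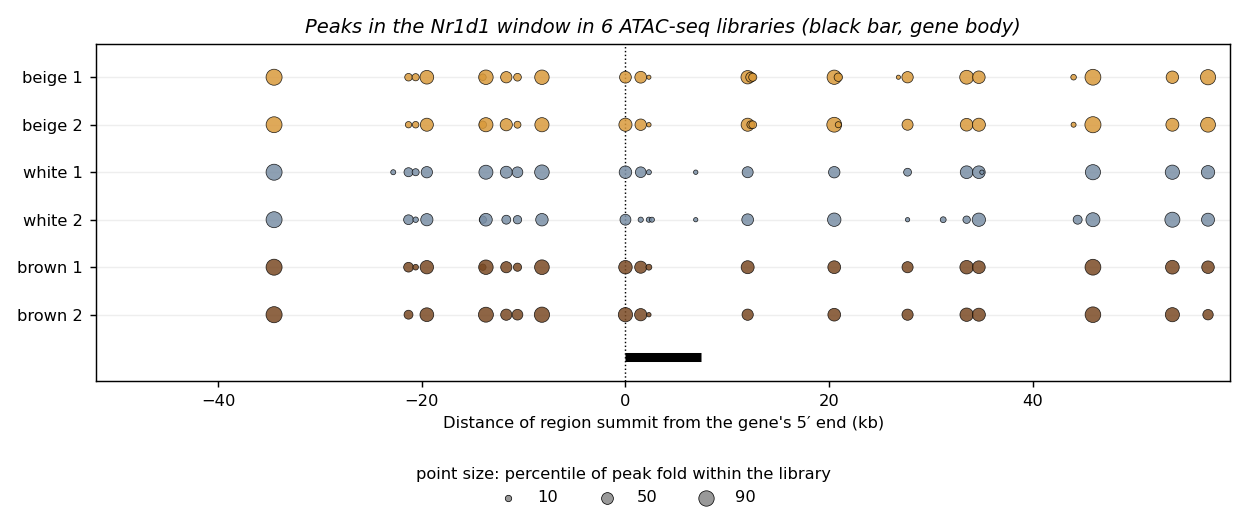
Open regions of the Nr1d1 window by distance of the region's strongest summit from the 5′ end of Nr1d1 (x axis, kb) in each of the 6 libraries (one line of points per library); point size is the percentile of peak fold within that library and the black bar is the gene body. The promoter peak at 0 kb is present in all libraries. Regions +12291, +12523 and +20880 have small points in beige alone, beside regions +12035 and +20491, which are open in all libraries.

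Arntl had 27 regions, 13 of them open in all libraries. The intronic region +34806 had 83.1 and 80.5 in beige, 62.6 and 62.7 in white and 81.8 and 81.3 in brown, and white lay far below the others while the replicates of each condition lay close together. Region +43441, with the ROR element printed above, had 64.3 and 50.2 in beige, 47.5 and 44.3 in white and 44.1 and 53.5 in brown, where beige lay above white and overlapped brown. The strongest region of the window, +53197 in an intron, stayed between 93.2 and 97.9 in all libraries.

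The Npas2 window was the longest, with 35 regions, 12 of them shared by all libraries. Region +124357 with a ROR element had 78.1 and 77.9 in beige, 49.6 and 71.4 in white and 76.3 and 83.2 in brown, and region +114422 had 51.9 and 43.2, 27.4 and 31.8, and 61.5 and 48.6. Both lie in introns of Npas2 and were lower in both white libraries than in any other. Region +41514 was the reverse for beige, with 57.5 and 45.3 in beige, 81.8 and 66.6 in white and 59.3 and 71.3 in brown. Around Clock there were 16 regions, 10 of them found in 1 library, and 3 were shared by all: the promoter, the promoter of the neighbour Tmem165, at 91.3 to 94.6, and region −41449 in an intron of Nmu, at 45.5 to 83.8. A weak second promoter peak of Clock, −970, was called in both white libraries and brown replicate 2, at 0.504 to 28.1.

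Of the regions around Per2, 16 of 22 were shared by all libraries, the highest share of the 10 windows. The region −24186, between genes, had 98.0 and 97.1 in beige, 82.9 and 88.4 in white and 86.7 and 86.7 in brown. Beige lay above every white and brown library. Inside the gene the direction turned: +3241 had 3.47 and 6.41 in beige, 28.0 and 51.1 in white and 8.36 and 6.63 in brown, and +849 had 29.9 and 30.5 in beige, 50.6 and 16.9 in white and 51.6 and 55.9 in brown. Thus white was highest at the first and brown at the second. At the promoter of Erfe, the gene of erythroferrone, region +92930 had 83.8 and 75.9 in beige, 27.6 and 71.6 in white and 74.0 and 76.0 in brown, a difference that rests on white replicate 1. The intronic regions +12959 and +21533 stayed between 72.3 and 89.9.

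Per3 lies within an intron of Camta1, a gene for a calmodulin-binding transcription activator, which its window shares. Region −28863 had 87.6 and 85.2 in beige, 71.1 and 78.6 in white and 61.9 and 78.2 in brown, highest in beige, and region +1268, with a D-box, had 38.9 and 34.2, 57.3 and 67.3, and 51.5 and 11.3, highest in white. The Per3 promoter (region −15) therefore lay between 2 regions with opposite orders of beige and white.

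Around Cry1 no shared region met the rank rule in any direction. The intronic region +23155 with 2 ROR elements had 88.2 and 96.4 in beige, 84.1 and 88.1 in white and 83.6 and 83.3 in brown. The beige values lay above those of brown in both libraries, with means that differed by less than the 10 points of the rule. Nearby, +29305 was open in beige alone (25.6 and 58.7) and +30670 was open in beige (51.1 and 86.0) and white (68.4 and 80.9) and in neither brown library. Beside the first, +23464 was open in beige (34.2 and 54.0) and brown replicate 1 (42.9), so 3 of the intronic regions of Cry1 differed in presence.

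Cry2 had 14 shared regions of 32, and white stood apart in both directions. In an intron, +10141 with 2 E-boxes had 44.0 and 52.6 in beige, 12.3 and 18.0 in white and 30.4 and 47.4 in brown, with white lowest. In the next region towards the promoter, +8973, the values were 46.6 and 46.4 in beige, 77.5 and 51.0 in white and 72.5 and 70.1 in brown, with beige lowest. Upstream, −35362 had 79.0 and 48.8, 45.8 and 45.5, and 73.5 and 78.8, and white was again lowest. Within Pex16, a peroxisome assembly gene, +57545 had 10.0 and 23.1 in beige, 62.8 and 52.6 in white and 29.9 and 45.8 in brown, and no 2 conditions overlapped.

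**Figure D4:**
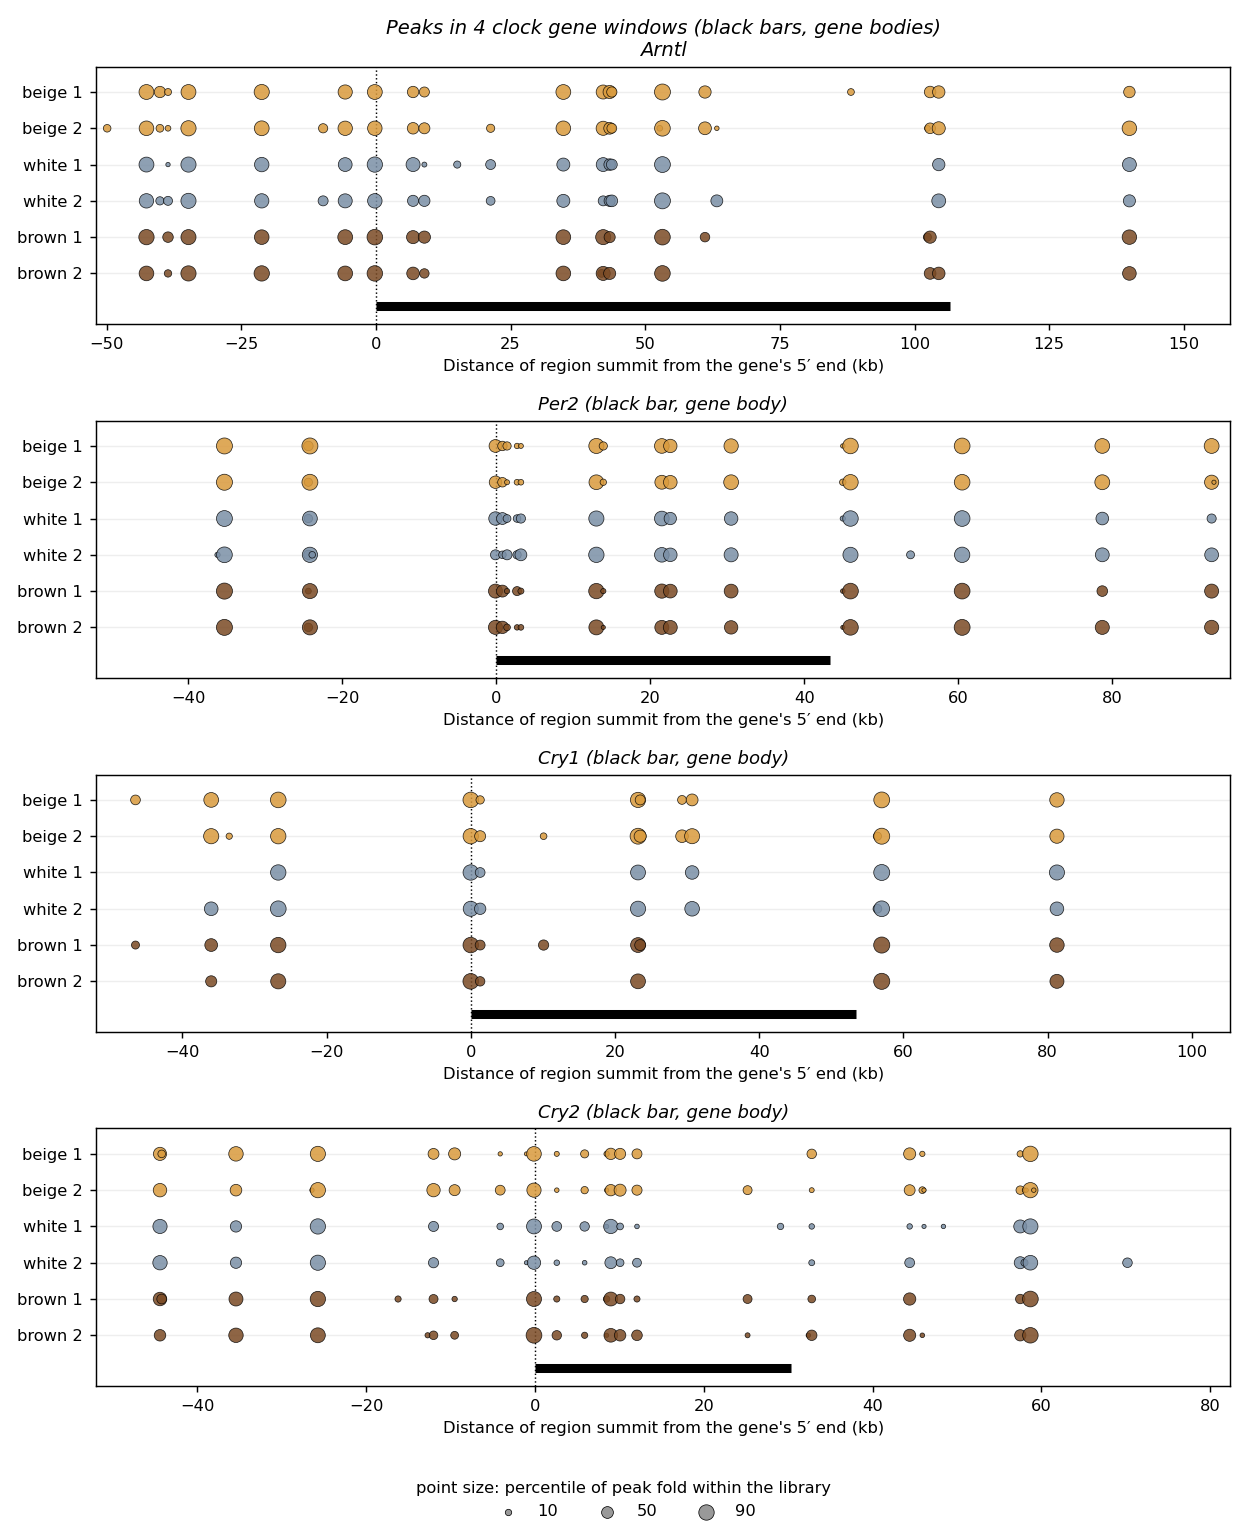
Open regions in the windows of Arntl, Per2, Cry1 and Cry2 by distance of the strongest summit from the gene's 5′ end (x axis, kb) in the 6 libraries; point size is the percentile of peak fold within the library, black bars are gene bodies and dotted lines the 5′ ends. In the Cry1 window the brown libraries lack region +30670, which beige and white libraries have, and +29305 beside it is open in beige alone.

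Nr1d2 had 17 regions, 2 of them shared by all libraries, its own promoter and that of Rpl15 and Nkiras1 (96.3 to 99.6). Neither met the rank rule. Region −48519, in an intron of Ube2e1, was open in beige (22.2 and 53.7) and brown (57.7 and 68.3) and not in white, and +71916 in beige alone (47.3 and 45.3). Dbp had 28 regions in a window crowded with other genes (Sec1, Ntn5, Car11, Sphk2, Rpl18 and Sult2b1), 10 of them shared. Within Dbp, the intronic region +2687 with 2 E-boxes and an E′-box had 21.3 and 29.5 in beige, 28.2 and 3.24 in white and 28.5 and 24.5 in brown, with white overlapping the others. At the start of Sphk2 and Rpl18, +10209 had 65.8 and 77.1, 72.9 and 44.7, and 80.4 and 84.3, highest in brown, while +34473 in Sult2b1 had 93.5 and 91.4 in beige, 71.8 and 98.3 in white and 76.1 and 79.3 in brown, where beige lay above brown and white spanned both.

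Clock motifs were counted within 100 bp of the strongest summit on both strands. E-boxes stood in 15 of 241 clock gene regions (6.22%, 3.53 to 10.1%) against 3.88% of all regions and 6.11% of promoter regions. E′-boxes stood in 11 (4.56% against 3.03%), ROR elements in 10 (4.15%, 2.01 to 7.50%, against 2.28%) and D-boxes in 2, Per2 −75 and Per3 +1268 (0.830% against 1.71%). The cAMP response element (TGACGTCA), through which cAMP signals are known to reach Per1, stood in 5 (2.07%, 0.677 to 4.77%, against 0.649%), at Per3 −13388, Cry2 +8534, Nr1d1 −10595, Nr1d1 −22805 and Dbp +12986. The glucocorticoid element (AGAACA and TGTTCT with 3 bases between) and the PPAR DR1 element (a pair of AGGTCA with 1 base between) stood in 0 of 241, with an upper limit of 1.52%, and in 0.0134% and 0.0555% of all regions. The intervals of the E-box, E′-box and ROR shares hold the share of all regions and that of the cAMP element begins just above it, though it also holds the 1.99% of promoter regions, and 3 of the 5 cAMP element regions were promoter regions of other genes. The Nr1d1 window alone held 6 of the 15 E-box regions.

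Of the 15 E-box regions 11 were open in all 6 libraries, and several of these ranked lower in white. Beige ranked above white in 6 of the 11 (Npas2 +89823, Cry2 +10141 and 4 in the Nr1d1 window) and brown above white in 5, while white ranked above beige or brown in 0 of 11. Over all 2771 such regions of the genome with an E-box the shares were 22.3% for beige over white and 7.83% for white over beige, and 20.6% for brown over white and 9.64% for white over brown, so the lower rank of E-box regions in white was not particular to clock genes. Without white replicate 2 beige ranked above white in 4 (24.5% of all E-box regions) and brown above white in 5 (22.0%). Without white replicate 1 the counts were 8 (32.3%) and 7 (31.1%). Npas2 +89823, for example, had 56.9 and 55.9 in beige, 55.0 and 9.75 in white and 63.5 and 47.6 in brown, and rested on white replicate 2 alone. Cry2 +10141 and Nr1d1 +27739 ranked lower in white with either white library left out and by −log10 q.

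**Figure D5:**
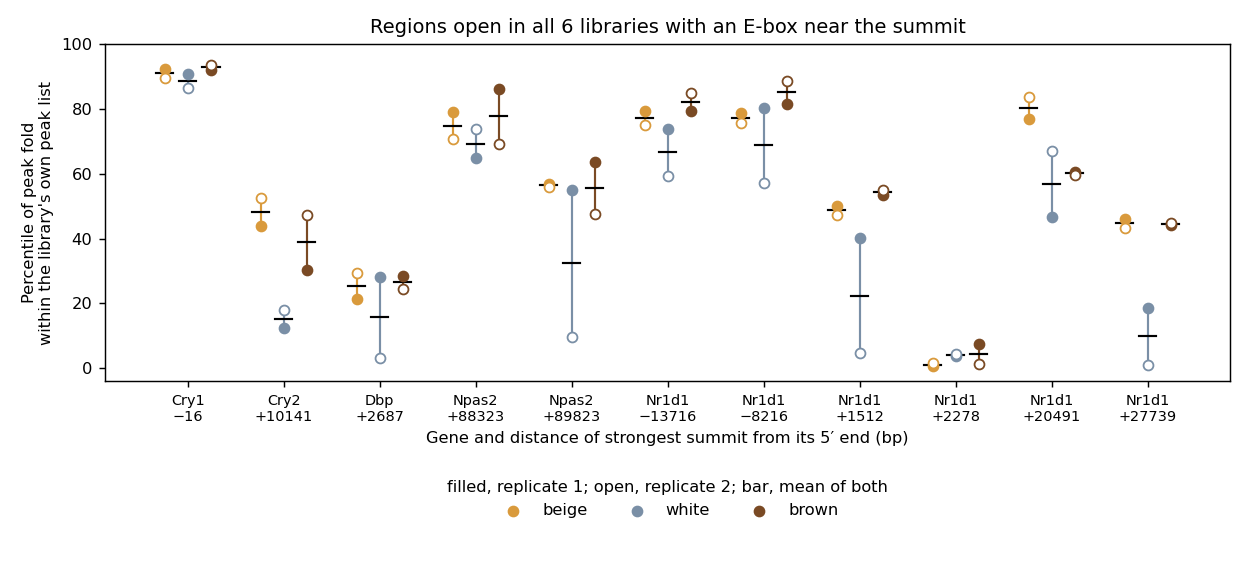
Percentile of peak fold within the library's own list (y axis) for the 11 clock gene regions that hold an E-box and were open in all 6 libraries (x axis, gene and distance of the strongest summit from its 5′ end in bp); filled points are replicate 1, open points replicate 2 and black bars the mean of both. Both white points lie below all others at Cry2 +10141 and Nr1d1 +27739, while at Npas2 +89823 and Nr1d1 +1512 white replicate 2 is far below white replicate 1.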

How the data were processed

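Open chromatin of cultured beige, white and brown adipocytes was measured by ATAC-seq in 6 libraries. The authors aligned reads to mm10 with BWA and called peaks in each library with MACS2 at a q value under 0.05; for the brown libraries these tools are known only from the submitters' processing notes. The deposited fold is a ratio of signal at the summit to the background that MACS2 estimated within that library, and a deposited −log10 q goes with each summit, so neither is comparable in size between libraries. The lists hold no reads, and precision is limited by the number of peaks.

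Each interval entered once, represented by its summit of highest −log10 q, and was ranked by fold within each list. Intervals that overlapped by 1 bp were merged across the 6 lists into regions. A region belonged to a gene if a summit lay within 50000 bp of it. Promoters were the 1000 bp to each side of the start of any protein-coding transcript listed in GENCODE M21 basic, on GRCm38.p6. A region was called different in presence if both libraries of one condition and neither of the other had a peak, and different in rank if both percentiles of one condition exceeded both of the other and the means differed by at least 10 points. Shares of regions carry 95% Clopper-Pearson intervals. No test was made between conditions. Motifs were searched on both strands in the 201 bases around the strongest summit; a PPAR match can contain a ROR element, and the others share no whole match.

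Clock members were the 10 genes named at the outset, other clock genes and markers were lists, and the genes most like a member were the 2 nearest for each of the 3 members of widest range. The members and lists were chosen with earlier results of these data known. Region calls were tested on simulated data. Promoter peaks were not simulated, though promoter calls use the same rank rule. Computations used samtools 1.23.1 and Python 3.11.15 with matplotlib 3.10.9, scipy 1.17.1, pandas 2.3.3 and numpy 2.4.6. Alternatives covered stricter q values, equally long lists, other windows and promoter widths, summit distance, ranking by −log10 q, other minimum differences and leaving out each library; counts of promoters by direction, the split at a mean percentile of 80 and the counts of E-box regions were added after values had been seen. Part of the list of other clock genes is not reported here, and counts over that list leave it out.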

Additional observations from a re-analysis of the deposited data

How the results depend on the processing

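Where opposite directions are set side by side, their order turned as follows. Regions ranked higher in brown than in beige against the opposite were 16 and 13 as reported, 13 and 19 at a q value under 0.00001, 20 and 21 with windows of 100 kb, 6 and 14 by −log10 q and 4 and 6 at 20 points. Regions open in brown and not white against the opposite were 8 and 7 as reported, 5 and 6 at a q value under 0.00001, 15 and 34 without white replicate 1 and 14 and 27 without white replicate 2. Promoters higher in beige than in white against the opposite were 1 and 0 as reported and 1 and 2 without white replicate 2. Of the shares and counts recomputed under other settings, 218 stayed within the interval of the reported value (for counts, within 1.5 times) and 39 moved out of it; the cause was not tested except where the setting itself gives it. No paired analysis was possible because conditions were set side by side without any test. With 2 libraries per condition, leaving 1 out lets its condition be called from 1 list, so presence shares grow by construction. Over the libraries left out, the shares of regions open in one condition and not another ran from 8.05 to 15.4% (beige, not white), 1.69 to 9.65% (white, not beige), 0.877 to 7.20% (brown, not beige), 6.14 to 14.5% (beige, not brown), 3.32 to 10.6% (brown, not white) and 2.90 to 15.0% (white, not brown), and regions open in all libraries from 41.5 to 47.3%. Rank shares ran from 25.7 to 38.3% (beige over white), 11.5 to 16.2% (white over beige), 15.9 to 19.0% (brown over beige), 12.4 to 17.8% (beige over brown), 20.0 to 33.6% (brown over white) and 8.00 to 15.9% (white over brown); for beige over white, brown over white and white over brown the highest came without white replicate 1. Promoter counts ran from 1 to 5 (beige over white), 0 to 2 (white over beige), 4 to 6 (brown over beige) and 2 to 7 (brown over white). They stayed at 0 for beige over brown and white over brown, and the share of coding genes is not given for them.

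At a q value under 0.00001 regions open in all libraries made up 48.4% (36.7% of all regions). With windows of 10 kb, brown-not-beige regions fell to 0 (1.56% of all regions) and beige over brown to 5.36% (18.3%). Ranked by −log10 q, white over beige and brown over beige each came to 6.00% (11.1% and 8.38% of all such regions). Promoters higher in brown than in beige then came to 0. A minimum difference of 20 points gave 11.0% for beige over white (8.29% of all such regions) and 5.00% for white over beige (5.43%). Brown over beige came to 4.00% (4.01%) and beige over brown to 6.00% (8.49%). Brown over white came to 14.0% (6.95%) and white over brown to 2.00% (7.71%). This setting left 0 promoters for beige over white, 1 for brown over beige (Dbp) and 2 for brown over white (Per2 and Nr1d1). The share of coding genes is not given for these promoter counts. Without a minimum, brown over beige rose to 32.0% (24.0% of all such regions) and brown over white to 35.0% (22.7%). The lists give no reads, so small differences in openness cannot be told from depth or from the length of a list.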
